A study of Macaca mulatta with 102 samples.

Results

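Of 42701 transcripts measured in the lactating mammary gland and milk of rhesus macaques, 75 were present in mammary tissue and nearly missing from milk. They were chosen by their values: FPKM, reads per transcript divided by its length and by the size of the library, were averaged as the authors deposited them over 3 technical runs per sample and then over the samples of a tissue type label. A transcript was kept where its locus spanned over 1000 bases, its mean in biopsies was at least 10 FPKM, and its mean was at most 1 FPKM in milk cells, in milk fat and in cell-free milk. The difference between tissue and milk is therefore a description of how the transcripts were picked, and no test of it was made. The 75 transcripts were 0.176% of the table and 2.45% of the 3063 transcripts that met the limits on biopsy level and span at any level in milk.

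The study asked which mammary cells RNA in milk comes from and how well it stands for the gland. RNA from 34 samples of 6 lactating macaques, M1 to M6, was sequenced in 3 technical runs each. Each animal gave a core of mammary tissue (the label Bx). It was taken on day 30 post partum in M3, M4 and M6 and on day 90 in M1, M2 and M5. Days of biopsy are thus also different animals. Cores were taken right after milking, so the day 90 milk of M3, M4 and M6 came from animals already biopsied. Milk cells (Cells) came from all 6 animals on both days, and milk fat (Fat) from 4 animals on day 30 and 6 on day 90. The missing day 30 samples were left out by the study because their RNA was too degraded. It also reports lower RNA integrity in macaque milk fat than in milk cells or mammary tissue. Whether RNA integrity bears on the low values in milk was not tested. The 6 samples called cell-free milk here were taken on day 90 and carry the labels FatS10, FatsS10 or Skim10m. These labels name fat or skim and not cell-free milk, and they were grouped because the study counts as many cell-free samples. The mothers, sedated and given oxytocin for milking, had earlier pregnancies and nursed sons. FPKM carry no read counts, so the depth of a sample is unknown and no counting interval was computed. Biopsies are bulk samples, in which fewer cells of a type and less RNA per cell cannot be told apart.

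The lactating gland holds alveoli of secretory epithelium, which make milk and shed parts of their cytoplasm into it with the fat globules. Around the alveoli lie contractile myoepithelial cells and a stroma of fibroblasts, fat cells, blood and lymph vessels, nerves and immune cells, all of which a core of tissue can contain. Milk cells are a mixture of exfoliated epithelial cells and immune cells. Which cells carried the 75 transcripts was not tested. No table used here pairs the deposited transcript identifiers with gene symbols, so marker lists of these cell types could not be matched, and transcripts are called by their position on the rheMac2 assembly as the deposited table gives it. Levels were also read for the transcript the study names as LALBA, alpha-lactalbumin, a part of lactose synthase made by secretory epithelium. LALBA was at 27654 to 75671 FPKM in the 6 biopsies and at 59683 to 193091 FPKM in the 28 milk samples. It was high in both, so it cannot check which samples are tissue and which are milk.

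**Figure D1:**
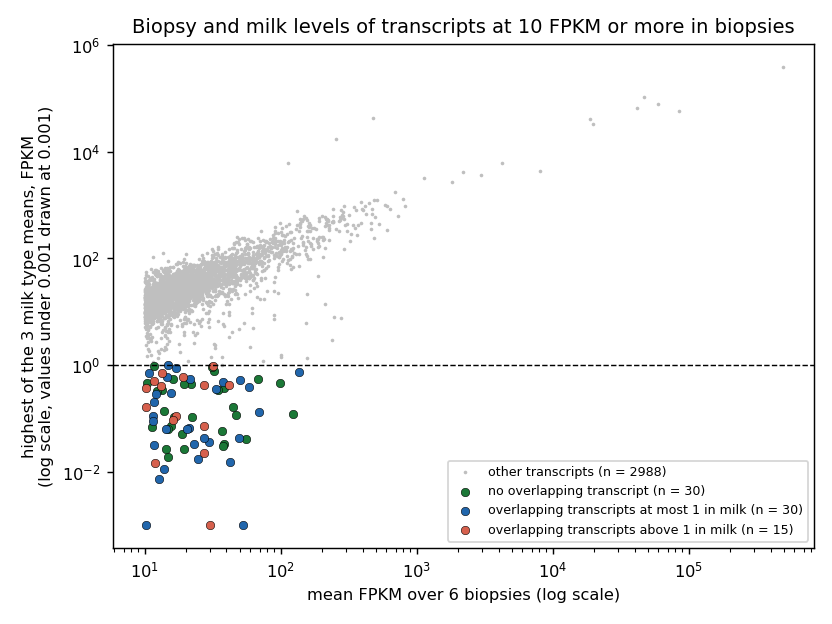
Mean FPKM over the 6 biopsies (x axis, log scale) against the highest of the means in milk cells, milk fat and cell-free milk (y axis, log scale) for 3063 transcripts at 10 FPKM or more in biopsies. Coloured points are the 75 transcripts at or under the dashed line at 1 FPKM, by what overlaps them on the genome, and grey points are the other 2988, most of which lie well above the line.

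The transcripts were of moderate level in tissue. Their mean in biopsies ran from 10.2 to 137 FPKM, with a median of 19.5 FPKM. Their loci spanned 1027 to 274725 bases, with a median of 18892 bases beside 14933 bases over the 3063. They lay on 19 chromosomes, with 8 each on chromosomes 3 and 16, and formed 66 separate loci, since 17 of them overlapped another of the 75. None lay on chromosome X. There, 91 transcripts met the limits on biopsy level and span, and the lowest of their highest milk means was 1.86 FPKM.

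The highest level was that of chr9:88515039-88532322. Its biopsies were at 104 FPKM in M1, 193 in M2, 95.1 in M3, 253 in M4, 68.0 in M5 and 111 in M6, a mean of 137 ± 70.5 (SD, n = 6). In milk cells it ran from 0.132 to 1.48 FPKM with a median of 0.497 FPKM. Cell-free milk held 0.0850 to 1.22 FPKM of it and milk fat 0 to 0.747 FPKM, so its lowest biopsy stood far above its highest milk sample.

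The second, chr3:122836027-122838120, was at 72.2 FPKM in M1, 55.4 in M2, 65.4 in M3, 275 in M4, 104 in M5 and 162 in M6. It had a mean of 122 ± 84.2 (SD, n = 6), with the M4 biopsy at the top as for the first. It was listed at 0 in all 10 milk fat samples and reached at most 0.425 FPKM in milk cells and 0.437 FPKM in cell-free milk. No other transcript of the table overlapped it, so its reads were not divided among isoforms. The third, chr13:74108932-74135896, likewise overlapped none and had a mean of 98.2 ± 63.1 FPKM (SD, n = 6), from 50.2 in M5 to 215 in M4. Its milk values reached 0.721 FPKM in milk cells, 0.263 FPKM in milk fat and 0.978 FPKM in cell-free milk.

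The next 9 in order of biopsy level had means between 44.5 and 69.7 FPKM. They were chr11:92343393-92377669 at 69.7 ± 27.5 FPKM, chr4:131944082-131945362 at 67.7 ± 49.9 and chr10:27947144-27955126 at 58.6 ± 21.1 (SD, n = 6 each). Then came chr16:34424100-34440368 at 55.2 ± 25.1 FPKM, chr7:164128351-164143496 at 52.8 ± 24.5 and chr16:51674879-51679462 at 50.3 ± 14.8. The last of them were chr12:52615945-52653405 at 49.5 ± 40.5 FPKM, chr2:187762204-187773607 at 46.7 ± 20.7 and chr6:132005265-132009521 at 44.5 ± 13.9. M4 was the highest biopsy in 10 of these 12 highest transcripts. Over the 75, the coefficient of variation between biopsies had a median of 42.9%, and that between runs of a biopsy a median of 8.17%. Runs differed more in some transcripts, by up to 109%, and in 3 of the 75 by more than the biopsies did. Among the 12 highest, chr16:51674879-51679462 varied by 39.1% between runs and 29.4% between biopsies, and chr7:164128351-164143496 by 42.3% and 46.5%.

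**Figure D2:**
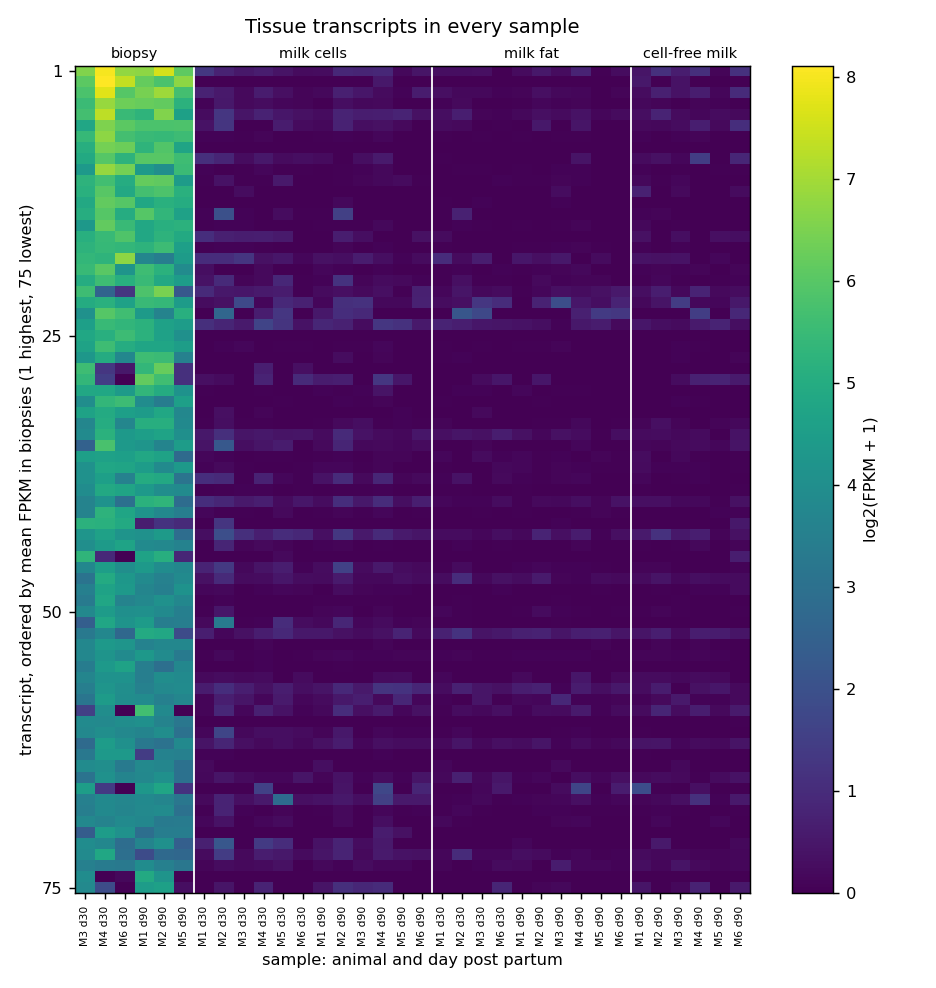
The 75 transcripts (rows, in order of their mean in biopsies) in each of the 34 samples (columns, by type, day and animal), coloured by log2(FPKM + 1). The 6 biopsy columns stand out from the 28 milk columns, and some rows are dark in the biopsies of M4, M5 and M6 or in those of day 90.

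Levels in milk were traces. As a share of its mean in biopsies, the median transcript was at 0.608% in milk cells, 0.145% in milk fat and 0.308% in cell-free milk. The biopsy mean exceeded the highest milk mean 150-fold at the median of the 73 transcripts with a milk mean above 0, and 11.8-fold at least. Of the 2100 values in milk, 62.6% were above 0.01 FPKM and 75 were above 1 FPKM. The values above 1 FPKM fell in 30 of the 75 transcripts. Milk cells had the highest of the milk means for 48 transcripts, cell-free milk for 19 and milk fat for 6. The Cells mean was above the Fat mean in 62 transcripts and above the cell-free mean in 52, a description that the limit of 1 FPKM on each mean bounds.

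In 67 of the 75 transcripts every biopsy lay above every one of the 28 milk samples, beside 3.10% of all 42701 transcripts and 4.64% of the 3063. Since the choice of the transcripts set this contrast, nothing is read from the count. It was 67 to 69 with each animal left out, and within sequencing pools 2, 3 and 4 it was 74, 71 and 70. The 8 exceptions comprised 7 transcripts with overlapping transcripts that were present in milk, described below, and chr4:36707683-36718129.

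Some transcripts were absent from milk at any level the files list. The transcript chr7:164128351-164143496 was listed at 0 in all 28 milk samples, and in biopsies it was at 25.7 FPKM in M5, 33.1 in M3, 37.4 in M1, 58.4 in M2, 77.8 in M6 and 84.3 in M4. The transcript chr4:165562049-165575139 was also listed at 0 in all milk samples, but it was nearly missing from some biopsies too. It was at 29.6 FPKM in M1, 17.2 in M2 and 14.3 in M3, at 0.123 in M6 and under 0.01 in M4 and M5. It met the limit of 10 FPKM through M1, M2 and M3 alone. A further transcript, chr15:14675710-14708640, stayed under 0.01 FPKM in every milk sample and had a mean of 30.4 FPKM in biopsies, from 15.7 in M5 to 45.9 in M6. All 3 had overlapping transcripts, and those of chr15:14675710-14708640 were at 30.3 FPKM in milk cells, so its locus as a whole was not missing from milk. At the other end, 13 of the 75 were above 0.01 FPKM in all 28 milk samples.

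Of the 5 transcripts with the highest milk means, some owed them to a single sample. The transcript chr4:36707683-36718129 had a Cells mean of 0.992 FPKM, a median of 0.140 FPKM and a single high value of 9.03 FPKM in the day 30 milk cells of M2, while its biopsies ran from 4.36 in M3 to 26.8 in M4. The transcript chr1:104304623-104306048 had a Cells mean of 0.983 FPKM, of which the day 30 milk cells of M5 held 6.09 FPKM and the other 11 samples at most 1.90 FPKM. The other milk cell samples of both lay mostly well under 1 FPKM. In chr9:50291960-50294014 the highest mean was that of milk fat, 0.969 FPKM, and in chr2:32701611-32738266 and chr3:80573837-80582719 that of milk cells, at 0.926 and 0.895 FPKM. Just over the limit, and so not among the 75, lay transcripts at chr10:66810674-67026440 (1.003 FPKM in milk cells), chr19:55091218-55110964 (1.14 in milk fat), chr11:49181395-49189609 (1.17 in milk cells), chr11:15255686-15259681 (1.22 in milk cells) and chr14:115597813-115603215 (1.38 in cell-free milk). The last of these had a biopsy mean of 156 FPKM, above that of every one of the 75.

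Near the limit on the biopsy mean, the 5 lowest transcripts inside were at 10.2 FPKM (chr11:29678087-29700597), 10.2 (chr4:165562049-165575139), 10.3 (chr6:53083984-53129592), 10.3 (chr7:17872132-17887415) and 10.8 (chr3:80573968-80582719). The 5 just outside ran from 9.73 to 9.96 FPKM, at chr1:198429755-198461026, chr19:42237294-42239774, chr16:14954038-14987117, chr9:122078331-122131033 and chr2:47392604-47423165. Inside and outside thus differed by little, and the limit separates no distinct group of transcripts.

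The 75 transcripts together summed to 2142 ± 645 FPKM in the 6 biopsies (mean ± SD). The same sum was 19.4 ± 13.8 FPKM over the 12 samples of milk cells, 8.33 ± 2.82 FPKM over the 10 of milk fat and 10.9 ± 3.24 FPKM over the 6 of cell-free milk. The biopsy sums were 2190 FPKM in M1, 2280 in M2, 1691 in M3, 3237 in M4, 1333 in M5 and 2123 in M6, which is 0.133% to 0.344% of all FPKM of a biopsy. Within an animal, the biopsy sum was 39.9 to 265 times that of milk cells. It was 158 to 432 times that of milk fat and 158 to 238 times that of cell-free milk. Some of these ratios set milk of one day against a biopsy of the other. The lowest, 39.9, set day 30 milk cells of M2 against its day 90 biopsy. In M5 the biopsy and the milk samples were also in different sequencing pools. No milk sample came near any biopsy.

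In FPKM as deposited, the milk cells of M2 carried more of these transcripts than those of other animals. Their sum was 57.1 FPKM on day 30 and 28.98 FPKM on day 90, while the other 10 milk cell samples ran from 8.01 to 24.4 FPKM. In FPKM scaled between samples by median-of-ratios factors, the sum of M2 was 37.8 on day 30, still the highest, but 19.2 on day 90, below the 19.4 and 19.5 of M4, so only the day 30 sample stood above all others under both scalings. In FPKM as deposited, 29 of the 75 transcripts were higher in M2 on day 30 than in every milk cell sample of the other 5 animals. On day 90, 21 were. The share over all transcripts was not counted, and neither were the counts made in scaled FPKM. The M2 milk cells had the largest scaling factors of all milk cell samples, 1.51 on both days, so nothing about the 75 is read from these counts. The transcript chr4:36707683-36718129 made up 15.8% of the day 30 sum. Without M2 the mean sum in milk cells was 14.7 FPKM. The milk fat of M2 on day 30 was the highest of the 10 fat samples as deposited, at 14.4 FPKM, but not when scaled, where it was 9.53 beside 12.7 in M4 and 9.97 in M3 on day 90. LALBA in the milk cells of M2 was at 66243 FPKM on day 30 and 76836 FPKM on day 90, in the lower part of the range of 59683 to 193091 FPKM over milk cells, and its part in the result was not tested.

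**Figure D3:**
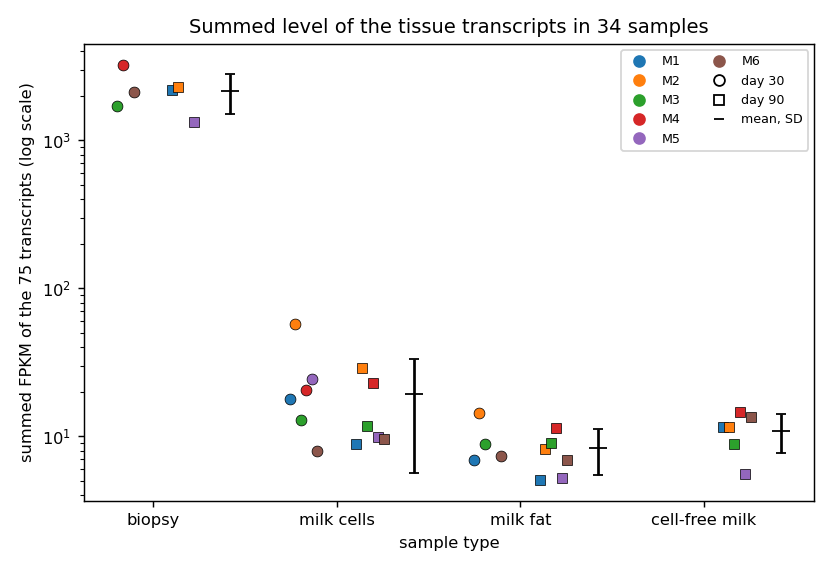
Summed FPKM of the 75 transcripts (y axis, log scale) in each of the 34 samples, by sample type; colours mark animals, circles day 30 and squares day 90, and bars the mean and SD of a type. Biopsies lie between 1333 and 3237 FPKM and milk samples between 5.07 and 57.1 FPKM, with the day 30 milk cells of M2 the highest.

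In FPKM as deposited, the biopsies differed among themselves in these transcripts more than in others. The coefficient of variation over the 6 biopsies had a median of 42.9% in the 75, from 17.03% to 142%. In the other 2988 transcripts at 10 FPKM or more its median was 28.9%. Among transcripts that overlap no other, the medians were 34.4% in 30 of the 75 and 27.4% in 1230 others. With overlapping transcripts at most 1 FPKM in milk, the medians were 40.1% in 30 and 27.99% in 464 others. With overlapping transcripts above 1 FPKM in milk, the medians were 74.2% in 15 and 30.5% in 1294 others. The size of the difference thus depended on overlap, and it was not computed in scaled FPKM. The 5 steadiest transcripts were chr6:145681571-145732468 (17.03%), chr1:104304623-104306048 (17.2%), chr1:13086366-13097813 (18.7%), chr6:53083984-53129592 (20.98%) and chr1:193056178-193111953 (21.02%). The first of them was at 12.6 FPKM in M1, 9.12 in M2, 12.9 in M3, 11.4 in M4, 9.29 in M5 and 13.8 in M6. In 37 of the 75 all 6 biopsies were at 10 FPKM or more, and in 8 at least 1 biopsy was at or under 1 FPKM.

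The M4 biopsy was the highest in 42 of the 75 transcripts (56.0%) and in 29.6% of the other 2988, and the M5 biopsy was the lowest in 37 (49.3%) and in 19.6% of the others. In scaled FPKM, M4 was the highest in 19 of the 75 (25.3%) and in 11.2% of the others, so the count for M4 depends on the scaling. Among the 30 transcripts that overlap no other, M4 was the highest in 23 (76.7%) as deposited and in 10 (33.3%) when scaled, beside 30.3% and 11.1% of the 1230 others without overlap. M5 was the lowest in 16 (53.3%) and 17 (56.7%) of the 30, beside 19.3% and 13.4% of those others. These biopsies did not stand at opposite ends of the LALBA values, which were 54881 FPKM in M4, 75671 in M5, 27654 in M1, 33064 in M2, 32468 in M3 and 59139 in M6. LALBA was highest in M5, where the sum of the 75 was lowest, and whether the amount of secretory epithelium in a core moved with the sum was not tested.

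What else lies on the locus divided the transcripts into 3 kinds. For 30, no other transcript of the table overlapped, for another 30 the overlapping transcripts summed to at most 1 FPKM in every milk type, and for 15 the overlapping transcripts exceeded 1 FPKM in milk. Cufflinks divides the reads of overlapping transcripts among them, and the table gives no strand, so values of overlapping transcripts are uncertain and those of the first 30 are the firmest. All 30 transcripts without overlap had every biopsy above every milk sample, and 22 of them were at 10 FPKM or more in all biopsies. Of the other 2988, 41.2% overlapped no transcript and 43.3% overlapped transcripts above 1 FPKM in milk, against 30 and 15 of the 75. When FPKM were summed over the overlapping transcripts of each locus, 63 loci met the rule, and they held 53 of the 75 transcripts.

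The uneven transcripts were mostly those with overlap. In 14 of the 75 (18.7%) the highest biopsy was at least 10 times the lowest, counting biopsies under 0.1 FPKM as 0.1, beside 90 of the other 2988 (3.01%). The 14 comprised 1 of the 30 without overlap, 5 of the 30 with overlap absent from milk and 8 of the 15 with overlap present in milk. In the last kind the share was 53.3% for the 75 and 5.56% for the other transcripts of that kind. The limit of 10 times was chosen after the values were seen, and the counts are descriptions.

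In 5 of the 15, a transcript seen mainly in the biopsies of M1, M2 and M3 overlapped another that was seen in milk and in the biopsies of M4, M5 and M6. At chr19:3212968-3291255 the transcript of the 75 was at 24.4 FPKM in M1, 32.8 in M2 and 38.3 in M3 but at 0.930 in M4, 0.812 in M5 and under 0.01 in M6. A second transcript with the same ends had the reverse order, with 2.16 FPKM in M1, under 0.01 in M2 and 1.94 in M3 but 21.3 in M4, 16.9 in M5 and 24.5 in M6. The sum over this locus ran from 21.7 to 47.9 FPKM in biopsies and was 23.4 in milk cells, 24.4 in milk fat and 33.6 in cell-free milk, values that lie within the range of the biopsies. Of the 3 transcripts there, only the 1 chosen by the rule was under 1 FPKM in milk.

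The locus at chr4:120349698-120624423 was alike. Its transcript was at 18.8, 26.3 and 22.03 FPKM in the biopsies of M1, M2 and M3 and at 1.61, 1.28 and under 0.01 in M4, M5 and M6, while a transcript ending 30 bases further on was at 3.34, 7.05 and 8.32 FPKM in M1, M2 and M3 and at 19.1, 12.9 and 25.7 in M4, M5 and M6. That second transcript had means of 18.4 FPKM in milk cells, 20.8 in milk fat and 19.8 in cell-free milk. The values of the isoforms thus changed places between biopsies, while their sum stayed between 14.2 and 33.3 FPKM.

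At chr1:4608824-4640327 the transcript was at 40.2, 73.1 and 47.3 FPKM in M1, M2 and M3 and at 1.45, 1.16 and 0.449 in M4, M5 and M6. The main other transcript there was at 37.4 to 55.9 FPKM in all 6 biopsies and at 52.9, 87.1 and 65.1 FPKM in milk cells, milk fat and cell-free milk. At chr14:15800360-15817740 the transcript was at 71.3, 48.6 and 40.6 FPKM in M1, M2 and M3 and at 1.84, 1.17 and under 0.01 in M4, M5 and M6, and the other transcripts of the locus summed to 32.3, 30.7 and 37.6 FPKM in the milk types. In these loci the sum over transcripts was higher in the biopsies of M1, M2 and M3 than in the other 3, so the isoform values did not simply change places.

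The same order of biopsies recurred at chr11:29678087-29700597 and, with no overlapping transcript in milk, at chr10:27947142-27955097 and chr4:165562049-165575139. At chr10:27947142-27955097 the values were 55.8, 88.4 and 47.6 FPKM in M1, M2 and M3 and 5.17, 3.75 and 1.37 in M4, M5 and M6, while an overlapping transcript that is also among the 75, chr10:27947144-27955126, was at 26.7 to 92.2 FPKM with its highest value in M4. These 7 transcripts were singled out after their values were seen. The biopsies of M1 and M2 share day 90 and sequencing pool 2, while that of M3 was taken on day 30 and was in pool 3. The biopsies of M1, M2 and M3 had the 3 lowest LALBA values. They also had the 3 lowest scaling factors, 0.743 to 0.819 beside 0.976 to 1.19 in M4, M5 and M6. Whether day, pool, LALBA or scaling factor bears on the isoforms was not tested.

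**Figure D4:**
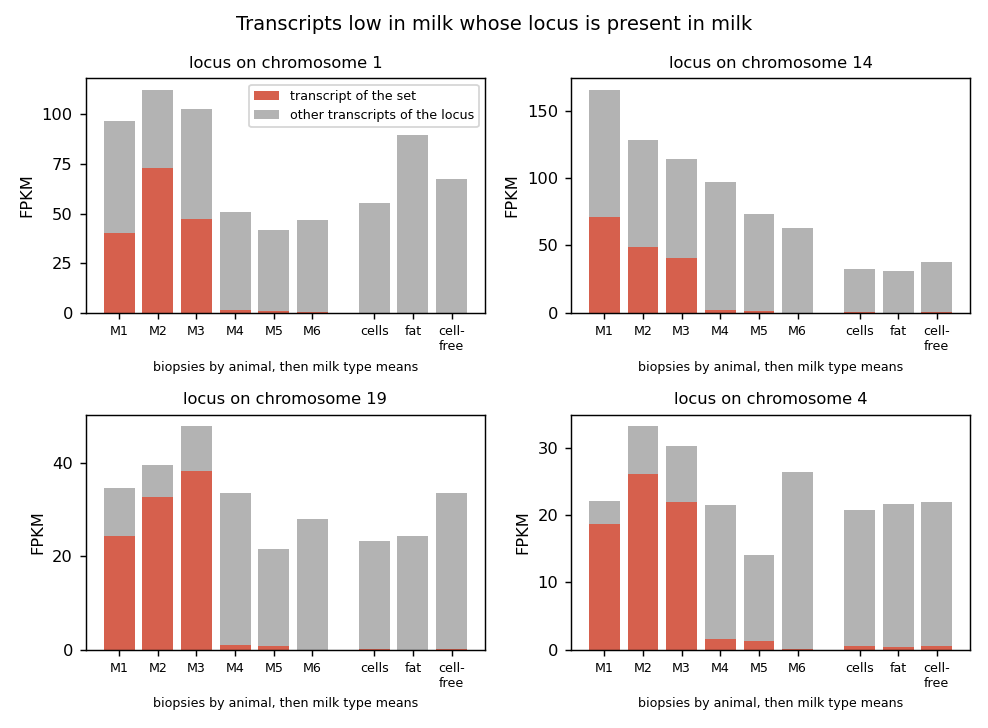
FPKM in the biopsy of each animal and the means in milk cells, milk fat and cell-free milk (x axis) at 4 loci, as stacked bars from 0: the transcript of the 75 in red and the summed other transcripts of its locus in grey. Red is tall in M1, M2 and M3 and nearly missing in M4, M5 and M6 and in milk, where the grey transcripts remain.

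The widest spread between biopsies was that of chr16:51674879-51705553, with a coefficient of variation of 142%. It was at 48.8 FPKM in M1, 13.4 in M2, 1.90 in M3, 14.7 in M4 and under 0.01 in M5 and M6. A shorter transcript that starts at the same base, chr16:51674879-51679462, was steadier, at 63.1 FPKM in M1, 63.6 in M2, 29.4 in M3, 61.4 in M4, 47.6 in M5 and 36.6 in M6. The only uneven transcript without overlap was chr7:17872132-17887415, from 2.65 FPKM in M1 to 27.6 in M4.

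Some of the transcripts lay close together. Within 1 Mb of each other, 9 groups held 24 of the 75. The largest had 6 on chromosome 16, from chr16:51674879-51679462 to chr16:52884689-52885716, with a summed biopsy level of 154 FPKM. That stretch also held 57 other transcripts, of which 29 were above 1 FPKM in some milk type, so neighbours of these 6 were present in milk. The second largest had 4 on chromosome 11, at chr11:92301210-92309314, chr11:92343393-92377669, chr11:92343421-92381056 and chr11:92343841-92381056, with biopsy means of 38.7, 69.7, 42.5 and 21.4 FPKM. The highest of their milk means was 0.134 FPKM, and the 2 other transcripts of that stretch were also at most 1 FPKM in milk. The pairs at chr12:80439649-80469062 and chr12:80483231-80499412, at 15.5 and 36.8 FPKM, and at chr17:90238189-90301252 and chr17:90559245-90588673, at 13.9 and 20.7 FPKM, lay side by side without overlapping. The remaining 5 groups were overlapping pairs on chromosomes 1, 3, 10, 12 and 20. Overlapping transcripts of a locus were counted as neighbours. How often others of the 3063 transcripts lie within 1 Mb of each other was not counted, so no clustering is read from the 9 groups.

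The days of lactation were compared within biopsies. The choice of transcripts did not use the day, but it used the biopsy mean, so a transcript high on a single day could pass through that day alone. For this, limma was run on log2(scaled FPKM + 1), with median-of-ratios scaling, over the 13762 transcripts that averaged at least 1 FPKM in biopsies. No transcript was called at an adjusted p under 0.05, so 0 of the 75 were called beside 0% of those tested, with 3 biopsies from 3 animals on each day. At an unadjusted p under 0.05 were 3 of the 75 and 440 of all tested (3.20%). The log2 difference, day 90 minus day 30, had a median of -0.01 over the 75 and 0.01 over all, with 37 of the 75 higher on day 90 and 38 lower. This even split depended on the fit. With the sequencing pool as a covariate, 7 were higher and 68 lower, with a median of -0.67 over the 75 and -0.01 over all. The day term of that fit rests on M5 alone against M3 and M4, the only biopsies that share a pool across days. Without M5, 54 were higher and 21 lower, with a median of 0.31. In FPKM as deposited, 21 were higher and 54 lower, with a median of -0.25 over the 75 and -0.20 over all transcripts.

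The smallest p among the 13762 transcripts belonged to 1 of the 75, ENSMMUT00000028265 at chr10:66813992-67026435. Without the filter on low values, 2 of 32814 transcripts were called, neither among the 75, and this transcript had an adjusted p of 0.169. On day 30 it was at 36.2 FPKM in M3, 34.2 in M4 and 29.3 in M6, and on day 90 at 0.577 in M1, 1.30 in M2 and 0.959 in M5. It met the limit of 10 FPKM through the day 30 biopsies alone. Every day 30 biopsy was at least 10 times every day 90 biopsy. This is a description of a transcript singled out by its values, and nothing is read from it. Its log2 difference was -4.01 with a standard error of 0.30, and its adjusted p was 0.0928 by limma with Benjamini-Hochberg adjustment, which misses the threshold. The adjusted p was 0.00693 in FPKM as deposited and 0.0257 without M3, and over the 11 alternatives it ran from 0.00693 to 0.338. The 12 other transcripts at this locus add uncertainty about the isoform. Summed over the locus, the day 30 biopsies were at 328 FPKM in M3, 391 in M4 and 364 in M6. The day 90 biopsies were at 68.2 FPKM in M1, 112 in M2 and 118 in M5. The locus had a mean of 33.5 FPKM in milk cells, where single samples ran from 1.04 to 209 FPKM, and of 0.805 and 0.907 FPKM in milk fat and cell-free milk. It was thus present in milk cells, unevenly, and at most a trace in the other milk fractions. The days are different animals, so day and animal cannot be told apart.

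In milk cells, 41 of the 75 transcripts had a mean of at least 0.1 FPKM and were tested among 21936 on log2(scaled FPKM + 0.1), with all 6 animals on both days. None of the 41 was called by limma at an adjusted p under 0.05, beside 62 of all transcripts tested (0.283%), of which 41 were higher on day 90 (0.187%) and 21 lower (0.0957%). With the animal as a replicate block, 3035 of all transcripts (13.8%) and again 0 of the 41 were called, with a smallest adjusted p of 0.0727 among the 41. At an unadjusted p under 0.05 were 1 of the 41 without the block and 4 with it, beside 22.4% and 30.5% of all transcripts. The mean log2 value was lower on day 90 in 33 of the 41, with a median log2 difference of -0.26 over the 41 and -0.04 over all transcripts, and in 24 of 36 without M2. With no filter on low values, it was lower in 49 of 73 and higher in 24, with a median of -0.10 over the 73. The share of all transcripts that were lower on day 90 was not counted, so nothing is read from these counts. By animal, the scaled sum of the 75 was lower on day 90 in M1, M2 and M5. It was slightly higher in M3, M4 and M6, that is, 3 animals went each way. M3, M4 and M6 were also the animals biopsied before their day 90 milk was taken. Whether the earlier biopsy bears on the days was not tested. In the fit without the block, the lowest p among the 41 was that of chr16:51674879-51679462. It had a log2 difference of -1.23 with a standard error of 0.53 and an adjusted p of 0.198 by limma. It was at 0.176 to 1.15 FPKM on day 30 and from under 0.01 to 0.491 FPKM on day 90, and the days overlapped.

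**Figure D5:**
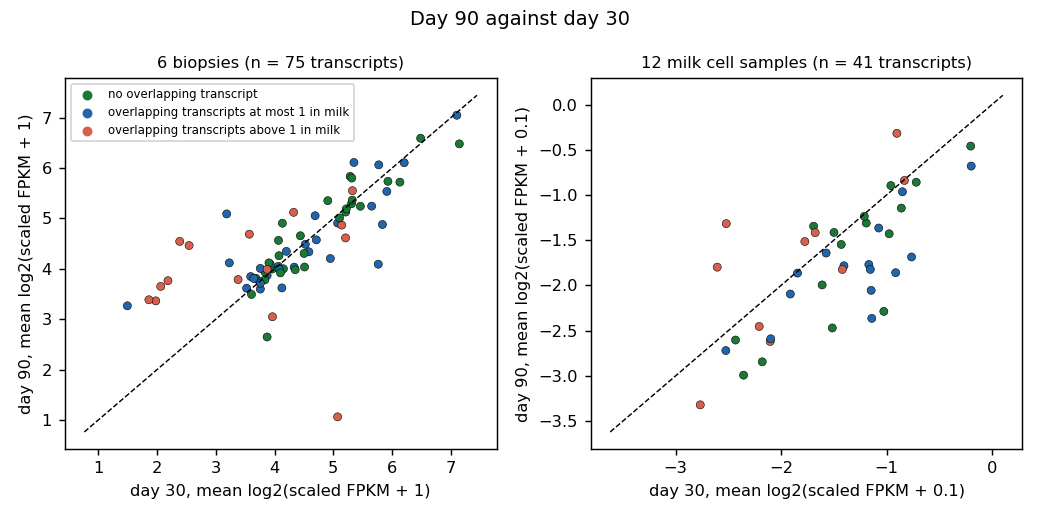
Mean log2 level on day 30 (x axis) against day 90 (y axis) for 75 transcripts in 6 biopsies (log2 of scaled FPKM + 1) and for 41 in 12 milk cell samples (log2 of scaled FPKM + 0.1), coloured by what overlaps them; the dashed line marks equal levels. The point far below the line on the left is the chromosome 10 transcript with a log2 difference of -4.01, and 33 of the 41 points on the right lie below the line.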

How the data were processed

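RNA of 34 samples from 6 macaques was sequenced by the authors from poly(A) libraries, with 3 technical runs each. The authors trimmed single reads of 100 bases, mapped them to rheMac2 with TopHat on Bowtie, and estimated FPKM with Cufflinks for Ensembl release 67 transcripts. These deposited FPKM are relative to transcript length and library size, and depth is unknown. The submitters' processing notes also name FastQC, and versions are not given in the sources used here. The file held 6 columns of values that match no sample's labels and were not used.

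Runs were averaged in FPKM, without scaling for levels. A locus span is its end minus its start. The days were compared with limma 3.58.1 in R 4.3.3 on log2(scaled FPKM + 1) for biopsies and log2(scaled FPKM + 0.1) for milk cells, two-sided, with a trend in the prior variance and Benjamini-Hochberg adjustment over all transcripts that passed a mean of 1 or 0.1 FPKM. Scaling factors were medians of ratios, taken from 21792 transcripts that no sample lists at 0. The fits were tested on simulated data. Milk cells of days 30 and 90 came from the same animals by their labels, and deviations from the day means correlated within animals over transcripts, with r of 0.161 to 0.492, so the samples are paired. Summaries used Python 3.11.15.

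The 75 transcripts, the lists and the tests were chosen with earlier results of these data known. Transcripts named in the text were the 12 highest in biopsies, the 5 on either side of each limit, the 5 with the largest and the 5 with the smallest coefficient of variation, the lowest p of each day comparison and those within 1 Mb of each other. Others were named after their values were seen. Alternatives covered scaling, pseudocount, filters, sequencing pool, replicate block, limits, runs, locus sums and each animal left out.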

Additional observations from a re-analysis of the deposited data

Results flagged for a closer look

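Among 30 groups of 4 to 10 samples, 3 held a sample far from the others by Dixon's test at the 95% level. Chance gives about 1 in 20 in groups picked without regard to their values, a rate that does not hold for the transcripts tested because of their level or spread in biopsies. The day 30 milk cells of M2 had a summed level of the 75 transcripts of 57.1 FPKM, while the other 5 animals on that day were between 8.01 and 24.4 FPKM. In scaled FPKM it was 37.8 beside 7.44 to 19.4. In biopsies, chr16:34424100-34440368 was at 106 FPKM in M4 and at 42.2 to 50.3 FPKM in the other animals. The transcript chr16:51674879-51705553 was at 48.8 FPKM in M1, with the other animals at 14.7 FPKM or less. It was tested as the transcript with the largest coefficient of variation, so a far sample there is no separate observation. Groups of 3 and the pooled 12 milk cell samples were not tested in this way.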

How the results depend on the processing

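The rule found 90 transcripts in scaled FPKM, 82 with medians in place of means, 72 to 79 in single runs and 81 with no limit on span. A biopsy mean of at least 5 FPKM gave 178 and at least 20 FPKM gave 37, while milk limits of 0.5 and 2 FPKM gave 59 and 94. With each animal left out it found 70 to 86, and 62 of the 75 met the rule in all 6 such runs. Among biopsies, 1 of the 75 was called by day in FPKM as deposited and 0 to 1 with each animal left out, the 1 without M3. Over all transcripts, these fits called 1 of 13762 as deposited and 12 of 13878 without M3. In each case the call among the 75 was the chromosome 10 transcript, at a log2 difference of -4.15 and -3.73. That transcript met the limit of 10 FPKM through its day 30 biopsies alone, so nothing is read from these calls. The replicate block changed no call of the transcripts in milk cells. Over all transcripts, the calls by day ran from 0 to 12 in biopsies and from 0 to 3035 in milk cells, where leaving out M3 gave 2422 and leaving out M1, M2, M5 or M6 gave 0. Alternatives for sums and counts were chosen after seeing the data. The sums by type moved by less than their SD under every alternative tried. The depth of each sample is unknown, so values near 0 cannot be given a limit of detection, and low milk values carry the uncertainty of how reads were divided among isoforms.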
